A study of Rattus norvegicus with 72 samples.

Results

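RNA of microdissected S1 segments, the first stretch of the proximal tubule, was compared between rats whose right kidney had been removed 48 h earlier and rats that had undergone a sham operation. The tissue came from the left kidney, which stayed in place in both groups. Of the 72 libraries of the series, 8 belong to this comparison: 4 after nephrectomy and 4 after sham surgery, chosen by their labels and not by any measured value. Of the 32545 genes in the count table, 18124 had enough reads to be tested, and every gene was considered. The other libraries come from S1 segments at 24 and 72 h, from glomeruli and from whole kidney at the same 3 times.

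All animals were adult male Sprague-Dawley rats, an outbred strain, kept on normal chow and operated on under general anaesthesia. In the sham group the right renal pedicle was dissected and the wound closed, so both groups shared anaesthesia, surgery and recovery and differed in the loss of the kidney. S1 segments were dissected by hand and their RNA was amplified before sequencing from 1 end. Nothing in the labels ties the 4 libraries of a group to separate rats, and p-values here measure the spread between libraries, part of which may be technical. In pooled tubule RNA, fewer cells of a type and less RNA per cell cannot be told apart.

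The S1 segment reabsorbs most of the filtered glucose, phosphate, amino acids and protein, through apical carriers and through the megalin and cubilin endocytic receptors. When a kidney is lost, the remaining one enlarges within days, mainly by growth of proximal tubule cells, while a minority of cells divide. The programmes described below have well-known regulators: adrenal glucocorticoids act through a nuclear receptor on genes such as Per1, Tsc22d3 and Zbtb16, the SREBP2 factor switches on cholesterol synthesis and uptake when sterols run low, and E2F factors switch on the genes of DNA replication when a cell enters S phase.

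Gene counts came to 22.7 to 72.8 M (M, 1e+06 counts) per nephrectomy library and 14.6 to 21.9 M per sham library, so every nephrectomy library was deeper (exact permutation test, two-sided, p = 0.0286, the smallest that 4 against 4 libraries allow). The share of uniquely placed reads that fell in genes was 66.6 to 69.7% after nephrectomy and 47.3 to 63.1% after sham surgery (exact permutation test, two-sided, p = 0.0286), and its part in the results was not tested. The 37 mitochondrial genes took 53.6 to 58.1% and 55.9 to 66.6% of gene counts (exact permutation test, two-sided, p = 0.114). The dissection was checked against glomeruli of the same sham group: 20 of 20 S1 markers were higher in S1 and 15 of 15 podocyte markers lower, with median log2 differences of 7.77 and -6.80. A contrast with glomeruli cannot tell S1 from later parts of the proximal tubule. Markers of the S3 part summed to 1046 to 1201 CPM (scaled counts, defined below) after nephrectomy and 729 to 1244 CPM after sham surgery. Slc34a1, the apical sodium-phosphate carrier, stood at 2257, 2291, 3809 and 3029 counts per 1e+06 gene counts (CPM) in nephrectomy libraries 1 to 4 and at 2502, 2416, 2834 and 2892 CPM in sham libraries 1 to 4. Slc5a2, the S1 glucose carrier SGLT2, stood at 101, 105, 123 and 130 CPM and at 90.6, 131, 151 and 112 CPM. Both defining markers were abundant in all 8 libraries, and the groups overlapped.

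Nephrectomy libraries 1 and 2 resembled each other more than any other pair of a group. Their log2 CPM correlated at r = 0.995 over genes, against 0.944 to 0.976 for the other 11 pairs, and their median absolute log2 difference was 0.0885, against 0.189 to 0.381. Their counts still differed by more than sampling noise (chi-square per degree of freedom 21.1, the smallest of the 12 pairs), and they were counted as 2 libraries. That measure bears only on the sampling of reads, so it cannot tell whether both came from the same RNA or rat. Fits with both summed into 1 library are given below. Libraries are listed below in the order of their numbers, 1 to 4, and log2 fold changes are nephrectomy minus sham, with the standard error (SE) of the fit.

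In the fit of all 24 S1 libraries, edgeR's quasi-likelihood test called no gene at an adjusted p of 0.05 (0 of 18124, percent called 0), and the adjusted p of every gene was 1. At an unadjusted p of 0.05, 49 genes were higher (0.27%) and 253 lower (1.4%), and DESeq2 on the same libraries called 4 genes, all lower, among them Sh3rf1 and Zbtb16. All 4 nephrectomy libraries lay above all 4 sham libraries for 596 genes (3.29%) and below them for 478 (2.64%). The spread that this fit assigns to each gene is shared over times that varied unequally: the common biological coefficient of variation was 0.264 among the 8 libraries of 48 h, 0.665 among those of 24 h and 0.906 among those of 72 h.

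Fitted alone, the 8 libraries of 48 h gave 2 calls of 12436 genes tested by edgeR (0.0161%): Pex11a, lower, and Myo19, higher. With the replicate number as a block, since equally numbered nephrectomy and sham libraries deviated together (r = 0.275 to 0.427), edgeR called 34 genes (0.273%), of which 12 were higher (0.0965%) and 22 lower (0.177%). At an unadjusted p, 6.22% of genes were higher and 6.18% lower in this paired fit. Differently numbered libraries deviated together too where both numbers were 1 and 2 or both were 3 and 4 (r = 0.212 to 0.438), so the data show these groups of numbers as clearly as the single pairs. A term for numbers 1 and 2 against 3 and 4 in place of the block called 37 genes, of which 23 were among the 34. With that term and nephrectomy libraries 1 and 2 summed into 1 library, only Pex11a and Myo19 were called, and the other genes of the 34 had edgeR adjusted p of 0.0585 to 0.602. The number of calls depended on single pairs: without pair 1, 2, 3 or 4 the paired fit called 13, 8, 31 or 6 genes. Pex11a kept its call without any 1 pair. The paired fit was chosen after the data were seen, and it counts nephrectomy libraries 1 and 2 as members of separate pairs. The fit of all S1 libraries and a replicate block over all times called no gene. "Rose" and "fell" are used below only as labels for the 34 genes of the paired fit. They do not mean that a call held in other fits. Every other gene is given by its values.

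Genes known as glucocorticoid targets were lower 48 h after nephrectomy. Of a list of 21 such genes, 20 were tested, and 16 had a negative log2 fold change, as 53.3% of all genes tested did. The median was -0.65, against -0.03 over all genes. At an unadjusted p, 6 were lower and none was higher, where 1.4% of all genes were lower, and 7 lay below every sham library, where 2.64% of all genes did. Of the 19 that entered the paired fit, 4 were called, all lower: Per1, Tsc22d3, Errfi1 and Klf9. Of all genes in that fit, 0.177% were called lower. In each of the 4 numbered pairs most members were lower in the nephrectomy library, 16, 14, 17 and 18 of the 20, with median log2 ratios of -0.68, -0.43, -0.62 and -0.87, against 0.024, 0.044, -0.075 and -0.020 over all genes tested. In these pairs 4, 6, 3 and 2 members were higher, where 52.4, 56, 45.2 and 47.1% of all genes tested were. With nephrectomy libraries 1 and 2 summed and the term for numbers, none of the list was called (edgeR adjusted p = 0.0899 for Per1, 0.0585 for Tsc22d3, 0.0995 for Errfi1 and 0.207 for Klf9). The list was not lower at the other times: its median in S1 was 0.32 at 24 h and -0.02 at 72 h.

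Per1, a component of the circadian clock that glucocorticoids induce directly, stood at 3.88, 4.42, 5.63 and 6.56 CPM in the nephrectomy libraries and at 22.3, 10.01, 38.9 and 16.5 CPM in the sham libraries. Every nephrectomy library lay below every sham library. Per1 fell by 2.03 on the log2 scale in the paired fit (SE 0.28, edgeR adjusted p = 0.0349), and the difference was -2.10 (SE 0.55) in the fit of 24 libraries. Tsc22d3, which encodes the anti-inflammatory protein GILZ, stood at 14.9, 16, 7.14 and 8.06 CPM against 30.1, 32.2, 22.3 and 33.5 CPM. Here too the groups did not overlap, and Tsc22d3 fell by 1.51 (SE 0.19, edgeR adjusted p = 0.0295). Another gene ID carries the symbol Tsc22d3 too, and the values are those of the more abundant one.

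Errfi1, an inhibitor of the EGF receptor, stood at 285, 284, 286 and 206 CPM against 1097, 554, 653 and 507 CPM, again without overlap. It fell by 1.44 on the log2 scale (SE 0.15, edgeR adjusted p = 0.0137, paired fit). Klf9, a transcription factor induced by both glucocorticoid and thyroid hormone, stood at 71.6, 71.8, 45.2 and 47.9 CPM against 166, 126, 54.5 and 92.2 CPM. Its groups overlapped, because sham library 3 was low, but each nephrectomy library lay under the sham library of its number, and Klf9 fell by 0.90 (SE 0.14, edgeR adjusted p = 0.047).

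Sgk1, the kinase that carries steroid signals to sodium transport, stood at 126, 126, 211 and 211 CPM against 853, 388, 463 and 326 CPM. The groups were separate, yet neither fit called the gene, with log2 fold changes of -1.59 (SE 0.51) in the fit of 24 libraries and -1.62 (SE 0.29, edgeR adjusted p = 0.0702) in the paired fit. Zbtb16, a zinc-finger repressor, was at 0.148, 0.322, 0.0444 and 0.257 CPM against 4.86, 1.17, 5.25 and 1.36 CPM. Its log2 fold change of -3.97 (SE 1.05) was the lowest of the list, and it was not called in the paired fit (edgeR adjusted p = 0.0903). Sult1a1, a sulfotransferase, stood at 20.1, 20.1, 20.8 and 17.4 CPM against 21.4, 59.3, 41.9 and 44.3 CPM, also without overlap. Not every classical target followed: Fkbp5, a co-chaperone of the receptor, overlapped between groups at 70.6, 75, 51.5 and 27.4 CPM against 58, 36.5, 74.5 and 50.3 CPM, with a log2 fold change of 0.03 (SE 0.45) whose sign changed with the scaling. The motif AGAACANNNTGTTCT, the palindrome bound by the receptor, was searched on both strands in the 250 bases before the RefSeq start (build GRCr8) and occurred in 0 of the 18 members with a promoter entry and in 0.012% of all 33469 promoters.

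**Figure D1:**
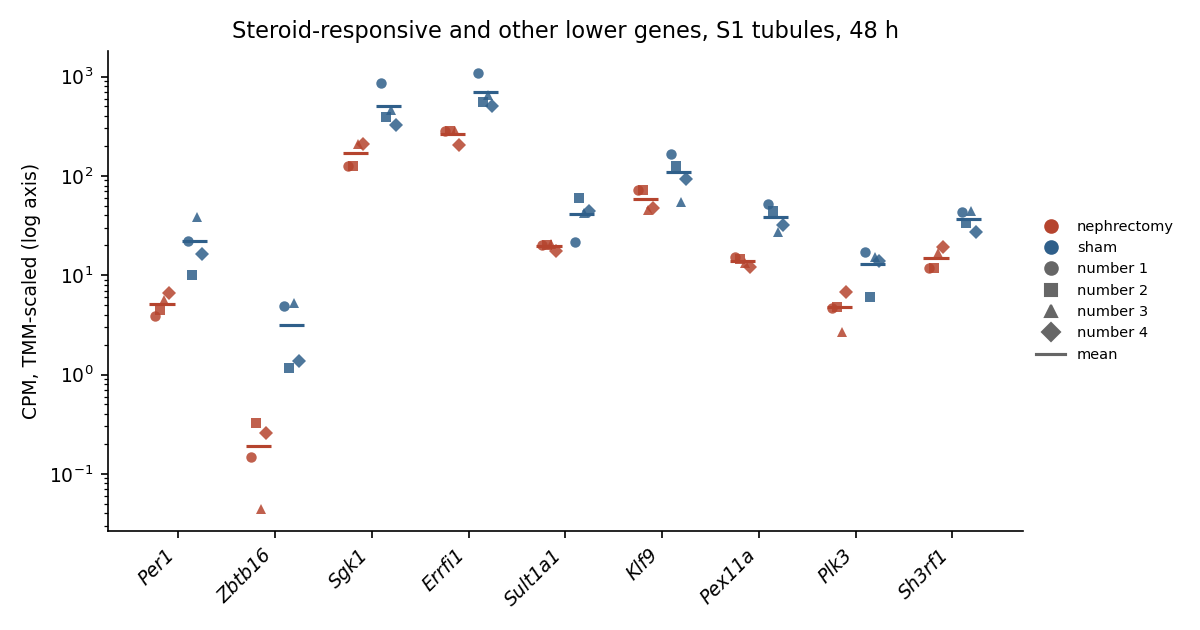
CPM (log axis) of genes that were lower after nephrectomy, one column per gene, with a point for each of the 4 nephrectomy and 4 sham S1 libraries of 48 h, its shape giving the number, and a line at the group mean. Per1 lies between 3.88 and 6.56 CPM after nephrectomy and between 10.01 and 38.9 CPM after sham surgery, and Pex11a between 12 and 15.4 and between 27.4 and 51.6 CPM.

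The times 24 and 72 h have their own sham libraries, and in 2 genes the difference at 48 h was called as unlike theirs. The difference at 48 h minus the mean difference at 24 and 72 h was -4.09 for Sgk1 (SE 0.64, edgeR adjusted p = 0.0186) and -3.00 for Plk3 (SE 0.49, edgeR adjusted p = 0.0186), and these were the only 2 of 18124 genes called in that test (0.011%). At 24 h, Sgk1 stood at 887, 690, 907 and 1263 CPM in the nephrectomy libraries and at 89.9, 253, 301 and 200.1 CPM in the sham libraries. At 72 h it stood at 932, 168, 1467 and 1761 CPM against 175, 92.7, 186 and 151 CPM. So Sgk1 was above every sham library in all 4 nephrectomy libraries of 24 h and in 3 of 4 of 72 h, and below them in all 4 of 48 h.

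Plk3, a stress-responsive kinase of the polo family, stood at 4.72, 4.79, 2.71 and 6.77 CPM against 17.2, 5.98, 15.4 and 13.9 CPM at 48 h. The groups overlapped there, since sham library 2 was low. At 24 h its values were 12.9, 14.2, 14.8 and 11 CPM against 4.09, 5.38, 3.95 and 4.21 CPM, without overlap and in the other direction. The log2 fold changes at 24, 48 and 72 h were 1.20, -2.10 and 0.95 for Per1, 2.08, -3.97 and 3.84 for Zbtb16 and 0.64, -1.32 and 0.83 for Sh3rf1. The test of that difference did not call Per1 (-3.17, SE 0.66, edgeR adjusted p = 0.236), Zbtb16 (-6.93, SE 1.30, edgeR adjusted p = 0.0996) or Sh3rf1 (-2.05, SE 0.40, edgeR adjusted p = 0.118).

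At the other times, 2 libraries stood apart. In sham library 2 of 24 h, genes took 11.8% of uniquely placed reads and the podocyte gene Nphs1 stood at 426 CPM, against 2.07 to 4.68 CPM in the other sham libraries of 24 h. In nephrectomy library 2 of 72 h, genes took 8.05%. Without the second of these, edgeR called 5 genes for the difference between times, and without both also 5: Sgk1, Plk3, Zbtb16, Sh3rf1 and Per1 passed in each case, all lower at 48 h. The calls of Sgk1 and Plk3 were lost with the replicate number as a block (edgeR adjusted p = 0.218 for each, differences -3.89 and -2.88), without TMM scaling (0 genes called) and with nephrectomy libraries 1 and 2 summed (edgeR adjusted p = 0.135 for each). They were also lost when nephrectomy library 1, 2 or 3 or sham library 1 or 3 of 48 h was left out (0 genes called), and that of Plk3 also without sham library 4 (1 gene called). The sham levels themselves differed between times, at 326 to 853 CPM for Sgk1 at 48 h against 89.9 to 301 CPM at 24 h. The labels used here give no clock time of dissection, and its part in these differences was not tested.

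**Figure D2:**
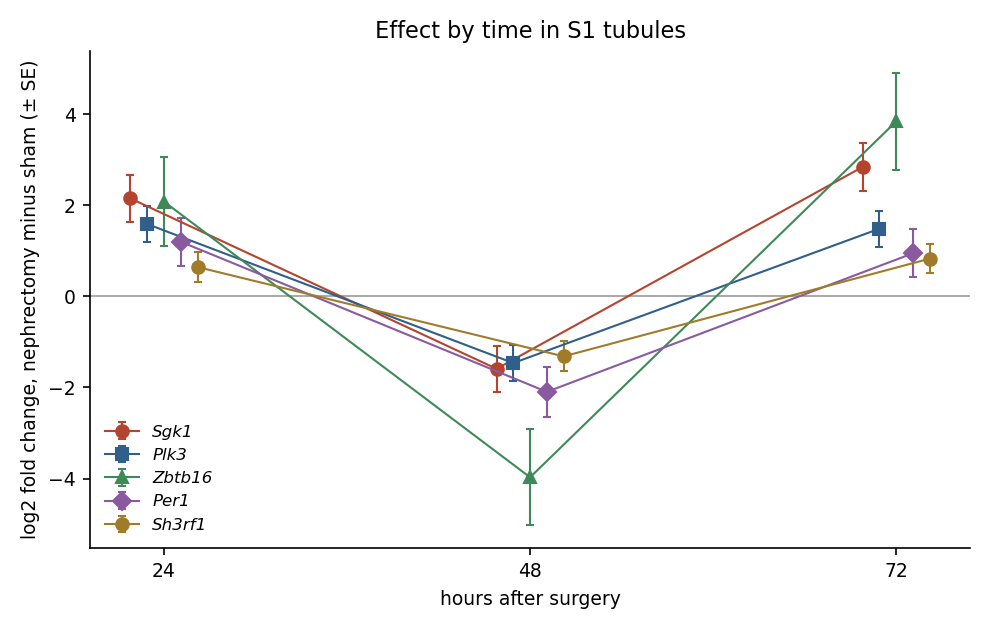
Log2 fold change of nephrectomy against sham S1 libraries (with SE) at 24, 48 and 72 h for Sgk1, Plk3, Zbtb16, Per1 and Sh3rf1. Sgk1 runs from 2.15 at 24 h to -1.59 at 48 h and 2.84 at 72 h, and Plk3 from 1.59 to -1.46 and 1.48.

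Among genes of the peroxisome and of fatty acid oxidation, a single member fell, where 0.177% of all genes in the paired fit did. Pex11a, which drives peroxisome division and is a target of PPAR alpha, stood at 15.4, 14.7, 13.4 and 12 CPM against 51.6, 44.2, 27.4 and 32.1 CPM. It fell by 1.54 (SE 0.13, edgeR adjusted p = 0.00938) in the paired fit, with the smallest adjusted p of all genes. The call held without any 1 pair (largest adjusted p 0.0326) and with nephrectomy libraries 1 and 2 summed, and the fit of 24 libraries called the gene once the libraries standing apart at 24 and 72 h were both left out (edgeR adjusted p = 0.0306). Pdk4, the kinase that turns off pyruvate dehydrogenase, stood at 3.05, 3.24, 1.60 and 1.67 CPM against 7.33, 6.04, 4.34 and 3.80 CPM, also without overlap (-1.27, SE 0.21, edgeR adjusted p = 0.0555, paired fit).

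The rest of that list did not move with them. Of its 40 symbols 34 were tested, 21 were positive and 13 negative, and the median was 0.06. Cpt1a, the carnitine transferase that gates fatty acid entry into mitochondria, was at 132, 130, 142 and 127 CPM against 128, 107, 84.8 and 84.8 CPM. Cyp4a1, a classical PPAR alpha target, overlapped between groups at 286 to 445 CPM against 157 to 457 CPM. Pck1, of gluconeogenesis, had a log2 fold change of -0.22 (SE 0.70), whose sign turned when sham library 2 was left out. Of 44 nuclear genes of the respiratory chain, 41 were positive with a median of 0.22, of 16 glycolysis genes 13 with a median of 0.40 and of 17 lipid synthesis genes 14 with a median of 0.23. The fit of 24 libraries called none of these members, as it called no gene at all. Genes of at least 5 CPM had a median of 0.12 with 71.6% above 0, so a small positive median was common among well-expressed genes. With DESeq2's size factors the medians of those 3 lists were 0.13, 0.31 and 0.13.

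Further genes fell that belong to signalling and to redox metabolism. Sh3rf1, a scaffold of the JNK pathway, stood at 11.9, 11.7, 16.9 and 19.1 CPM against 43.6, 33.8, 43.9 and 27.4 CPM and fell by 1.41 (SE 0.20, edgeR adjusted p = 0.0362). Its unadjusted p was the lowest of the named genes in the fit of 24 libraries. Ggct, an enzyme of the gamma-glutamyl cycle of glutathione, stood at 13.1, 15.2, 7.98 and 9.86 CPM against 41.7, 35.5, 14.6 and 33.1 CPM and fell by 1.48 (SE 0.16, edgeR adjusted p = 0.0137). The overlap of its groups came from sham library 3. Dusp6, the phosphatase that switches off ERK and is itself induced by ERK signalling, stood at 9.93, 8.07, 5.15 and 7.33 CPM against 18.7, 15.4, 8.90 and 15.2 CPM and fell by 1.01 (SE 0.13, edgeR adjusted p = 0.0309).

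Osbpl8, a lipid exchanger of the oxysterol-binding protein family, and Abca1, the cholesterol exporter that oxysterols induce through LXR, fell by 0.96 (SE 0.13, edgeR adjusted p = 0.0309) and 1.29 (SE 0.19, edgeR adjusted p = 0.047). Abca1 stood at 20.3, 23.3, 6.88 and 6.56 CPM against 36.7, 37.8, 24 and 19.3 CPM, so that pairs 3 and 4 differed most. Zhx3, a zinc-finger homeobox repressor, was below every sham library, with 63.9, 67.3, 47.5 and 59.4 CPM against 106, 117, 77.7 and 108 CPM, and fell by 0.86 (SE 0.09, edgeR adjusted p = 0.0137). Piga, of GPI anchor synthesis, and Sema6d, a transmembrane semaphorin, also lay below every sham library and fell by 1.19 and 0.85 (edgeR adjusted p = 0.047 for each). Sema6d was low at all 3 times, with log2 fold changes of -0.69, -0.78 and -0.89 at 24, 48 and 72 h.

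Among carriers, 2 fell. Slc5a8, a sodium-coupled carrier of lactate and short-chain fatty acids, stood at 3.64, 3.72, 1.06 and 4.03 CPM against 19.1, 15.6, 1.67 and 9.51 CPM and fell by 1.78 (SE 0.26, edgeR adjusted p = 0.047). Both libraries numbered 3 were far below the rest of their group. Slco1a6, an organic anion transporter, fell by 3.09 (SE 0.48, edgeR adjusted p = 0.047) from 0.695, 0.780, 1.37 and 3.23 CPM to 0.0492, 0.132, 0.177 and 0.343 CPM, levels near 1 CPM or under it in 7 of 8 libraries. The remaining 7 genes that fell were Crebrf, Rdh16, Mab21l3, Dnm3, Scn3a, Clec2g and a locus without a gene name, with log2 fold changes between -2.62 and -0.67.

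Of the immediate early genes, only Dusp6, described above, was called, in the paired fit, where 0.177% of all genes were called lower. Of 23 tested in the fit of 24 libraries, 16 were negative with a median of -0.50, against 53.3% of all genes, and 2 lay below every sham library, against 2.64%. The numbered pairs differed, with 5, 14, 6 and 10 of the 23 higher after nephrectomy in pairs 1 to 4, where 52.4, 56, 45.2 and 47.1% of all genes tested were. The list's median was -0.10 within libraries 1 and 2 and -0.23 without sham library 3. Zfp36, which destabilizes cytokine mRNAs, stood at 31.7, 36.7, 23.4 and 29.7 CPM against 120, 41.8, 68.2 and 59.4 CPM, without overlap (-1.25, SE 0.25, edgeR adjusted p = 0.0903, paired fit). Ctgf, a matricellular growth factor, ranged from 9.22 to 13.8 CPM after nephrectomy and was at 145, 13.5, 63.7 and 16.1 CPM after sham surgery. Its log2 fold change of -2.32 (SE 0.78) rested on sham libraries 1 and 3. Igfbp1, which binds insulin-like growth factors, stood at 6.69, 6.58, 3.24 and 3.00 CPM against 12.2, 9.68, 13.3 and 12.7 CPM, without overlap (-1.45, SE 0.28, edgeR adjusted p = 0.0895, paired fit). The list of 41 growth factor and mTOR genes to which it belongs had a median of -0.11. Igf1r, the receptor for insulin-like growth factor, was at 45.3 to 51.5 CPM against 52.7 to 61.7 CPM, and Myc at 1.92 to 3.28 CPM against 2.60 to 4.55 CPM, with log2 fold changes of -0.24 (SE 0.50) and -0.58 (SE 0.43). Ccnd1, the G1 cyclin, overlapped widely at 141 to 196 CPM against 86.2 to 205 CPM.

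Genes of cholesterol synthesis and uptake were higher as a group. All 27 listed genes were tested, and 26 had a positive log2 fold change, as 46.6% of all genes and 71.6% of those of at least 5 CPM did. The median was 0.57, against 0.12 over the genes of at least 5 CPM. At an unadjusted p, 5 were higher and none lower, where 0.27% of all genes were higher. Above every sham library lay 8, among them Hmgcs1, Sqle, Nsdhl and Stard4, where 3.29% of all genes and 6.27% of those of at least 5 CPM did. In numbered pairs 1 to 4, 24, 24, 23 and 25 members were higher after nephrectomy, where 52.4, 56, 45.2 and 47.1% of all genes tested were. Of genes of at least 5 CPM, 65.1, 58.9, 74.6 and 61.5% were higher in these pairs. The paired fit called 1 of them, Cyp51, where it called 0.0965% of all genes higher. It had 16 higher and none lower at an unadjusted p, where 6.22% of all genes were higher. Without 1 library of 48 h in turn the median ran from 0.39 to 0.69.

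Cyp51, the lanosterol demethylase, stood at 26.3, 27.5, 40.6 and 53.5 CPM against 16, 14.7, 13.8 and 28.4 CPM. It rose by 0.93 (SE 0.14, edgeR adjusted p = 0.047), and its groups overlapped because sham library 4 reached 28.4 CPM. The call was lost with the term for numbers (edgeR adjusted p = 0.0964), also with nephrectomy libraries 1 and 2 summed (0.247), with DESeq2 on the 8 libraries (adjusted p = 0.1) and with limma voom (adjusted p = 0.115). Hmgcs1, which makes the precursor of mevalonate, stood at 42.9, 39.6, 51 and 85.2 CPM against 32.1, 26.9, 25.5 and 38.3 CPM (0.83, SE 0.41). Sqle, the squalene epoxidase and a rate-limiting step, stood at 19.6, 18.7, 39.9 and 34.2 CPM against 10.1, 17.2, 8.06 and 17.9 CPM (1.07, SE 0.36). In both genes the groups were separate, with libraries 3 and 4 highest after nephrectomy.

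Insig1, the sterol-responsive anchor that holds SREBP in the endoplasmic reticulum, stood at 15.8, 19.5, 21.5 and 36 CPM against 11.4, 11.3, 7.76 and 17.1 CPM. Its log2 fold change was 0.96 (SE 0.38), and 0.85 (SE 0.16, edgeR adjusted p = 0.0888) in the paired fit. The list's median at 24 and 72 h was 0.45 and 0.20, and Cyp51 had log2 fold changes of 0.94 and 0.77 there.

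Because these genes moved together, their promoters were searched. RefSeq (GRCr8) held an entry for 19 of the 27, and the letters CCAAT, the core of the NF-Y site, stood on either strand in the 250 bases before the start of 15 (78.9%), against 34% of all promoters. This was not particular to the list: of the genes of DNA replication and mitosis described below, 23 of 32 held CCAAT too (71.9%). The E-box CACGTG stood in 3 of 19 (15.8%, against 5.59%), namely Insig1, Sc5d and Scap, and the sterol element TCACNCCAC in 0 of 19 (0.974% of all). Both motifs stood in Insig1 and in Sc5d, and the Insig1 promoter is shown as an example. It lies at chr4:8057770-8058019 on the minus strand and is given 5′ to 3′, with CCAAT (read here from the other strand) and the E-box in capitals.
Insig1: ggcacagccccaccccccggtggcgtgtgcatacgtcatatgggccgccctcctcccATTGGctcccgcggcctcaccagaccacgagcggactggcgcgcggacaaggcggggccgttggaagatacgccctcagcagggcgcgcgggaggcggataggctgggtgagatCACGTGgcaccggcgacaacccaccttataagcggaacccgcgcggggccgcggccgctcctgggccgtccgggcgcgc

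**Figure D3:**
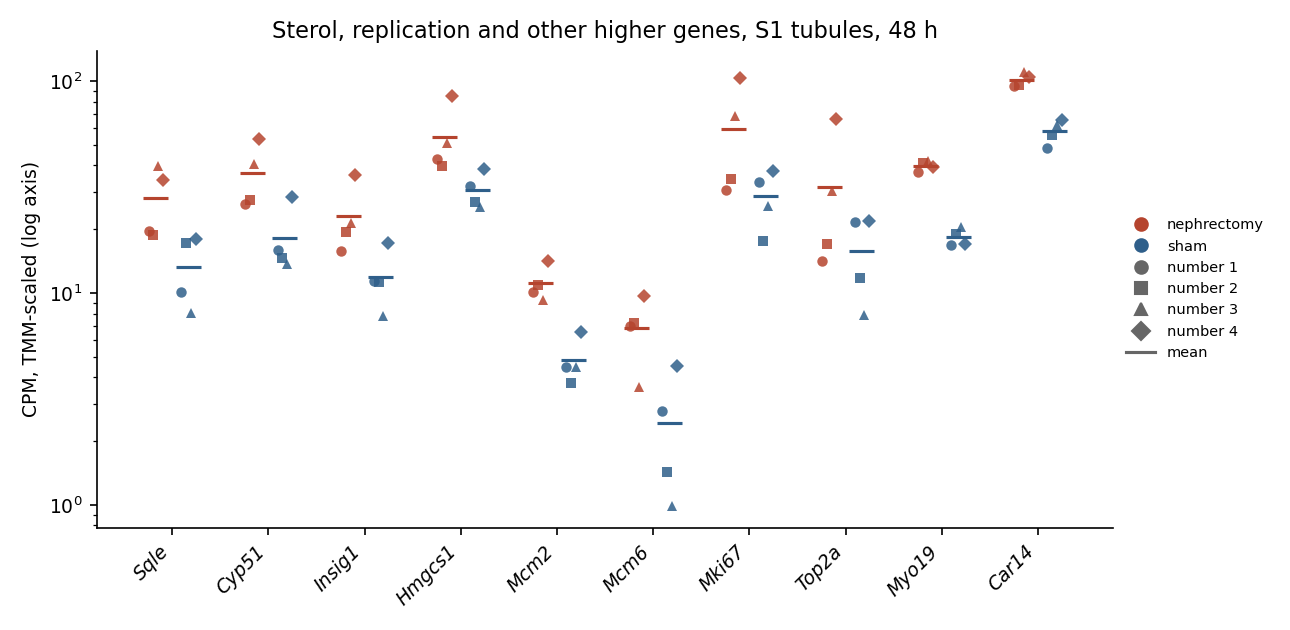
CPM (log axis) of genes that were higher after nephrectomy, one column per gene, with a point for each of the 8 S1 libraries of 48 h, its shape giving the number, and a line at the group mean. Myo19 lies between 37.3 and 42 CPM after nephrectomy and between 16.9 and 20.4 CPM after sham surgery, while in Mki67 and Top2a nephrectomy libraries 1 and 2 lie within the sham range.

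Genes of DNA replication and mitosis were higher in most, and the size depended on the pair. Of 44 listed genes 43 were tested, 42 were positive, against 46.6% of all genes, and the median log2 fold change was 0.80. At an unadjusted p, 8 were higher and none lower, where 0.27% of all genes were higher, and 2, Mcm2 and Gins2, lay above every sham library, a share near the background of 3.29%. In numbered pairs 1 to 4, 22, 32, 38 and 39 of the 43 were higher after nephrectomy, with median log2 ratios of 0.06, 0.47, 0.74 and 0.91, so pair 1 showed next to no shift. Of all genes tested, 52.4, 56, 45.2 and 47.1% were higher in these pairs, and of genes of at least 5 CPM 65.1, 58.9, 74.6 and 61.5%. Without nephrectomy library 4 the median was 0.40, and within libraries 1 and 2 of each group it was 0.35.

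Mcm2, a subunit of the helicase that opens replication origins, stood at 10.1, 10.9, 9.27 and 14.1 CPM against 4.48, 3.77, 4.49 and 6.56 CPM. It was the 1 member called in the paired fit, where 0.0965% of all genes were called higher. Mcm2 rose by 1.12 (SE 0.16, edgeR adjusted p = 0.0384), with little spread among the nephrectomy libraries. With the term for numbers and nephrectomy libraries 1 and 2 summed, the call was lost (edgeR adjusted p = 0.142). Mcm6, another subunit, stood at 6.98, 7.21, 3.59 and 9.69 CPM against 2.78, 1.43, 0.989 and 4.50 CPM (1.52, SE 0.25, edgeR adjusted p = 0.0508, paired fit). Mcm3 and Mcm5 had log2 fold changes of 1.39 (SE 0.59) and 1.31 (SE 0.89). Tpx2, a spindle assembly factor, stood at 11.9, 12.8, 15.5 and 31.9 CPM against 12.2, 5.72, 6.92 and 11 CPM.

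The proliferation marker Mki67 stood at 30.6, 34.6, 68.2 and 103 CPM against 33.4, 17.6, 25.6 and 37.6 CPM, with a log2 fold change of 1.05 (SE 0.47). Top2a, the topoisomerase of dividing cells, stood at 14.2, 17, 30.2 and 65.9 CPM against 21.7, 11.8, 7.91 and 21.9 CPM (1.00, SE 0.47). For both, nephrectomy libraries 1 and 2 lay within the sham range and libraries 3 and 4 above it, and within libraries 1 and 2 the log2 fold change of Top2a was -0.10. The helicase genes, by contrast, were as high in nephrectomy libraries 1 and 2 as in 3. Atad2, an E2F-responsive chromatin factor, stood at 16.7, 15.8, 9.23 and 20.3 CPM against 8.27, 5.91, 7.83 and 7.97 CPM, without overlap (1.05, SE 0.39). Among cell cycle inhibitors, Cdkn1a (p21) stood at 2.16 to 5.27 CPM against 3.79 to 9.20 CPM.

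The letters TTTNNCGC, an E2F-like motif, stood on either strand in 8 of the 32 members with a RefSeq promoter entry (25%), against 4.11% of all promoters: Cdk1, Mcm2, Mcm5, Mcm6, Mcm7, Nusap1, Plk1 and Tyms. CCAAT stood in 23 of the 32 (71.9%), against 34% of all promoters. The promoters of Mcm2 (chr4:122918095-122918344, minus strand) and Mcm6 (chr13:42404353-42404602, minus strand) are shown 5′ to 3′, Mcm2 because the paired fit called it and Mcm6 because its log2 fold change was the highest of the list. Each holds 2 overlapping matches on opposite strands, in capitals.
Mcm2: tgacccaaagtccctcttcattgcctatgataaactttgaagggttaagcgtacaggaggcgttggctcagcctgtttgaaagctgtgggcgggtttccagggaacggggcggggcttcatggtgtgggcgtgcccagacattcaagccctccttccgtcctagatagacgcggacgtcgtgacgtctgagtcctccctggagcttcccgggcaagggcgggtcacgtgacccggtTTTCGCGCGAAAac
Mcm6: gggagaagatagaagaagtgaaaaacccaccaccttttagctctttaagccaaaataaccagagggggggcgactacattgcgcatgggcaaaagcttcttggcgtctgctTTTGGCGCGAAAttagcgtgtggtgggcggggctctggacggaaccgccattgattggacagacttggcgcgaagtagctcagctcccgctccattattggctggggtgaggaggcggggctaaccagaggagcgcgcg
In Mcm2 the matches begin 14 and 10 bases before the start, and in Mcm6 139 and 135 bases before it. A match describes these letters and does not show binding.

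**Figure D4:**
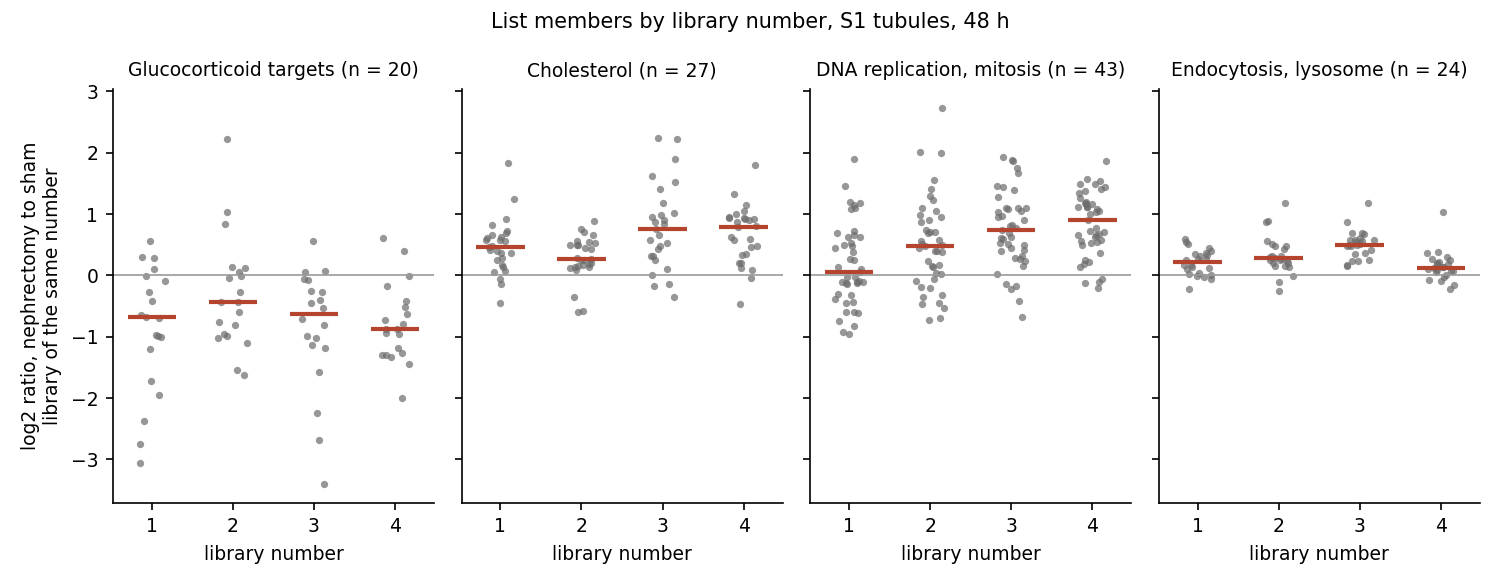
Log2 ratio of nephrectomy to sham CPM for each member (points) of 4 gene lists and their median (line), within each numbered pair of S1 libraries of 48 h. The medians of glucocorticoid targets lie below 0 in all 4 pairs (-0.87 to -0.43), cholesterol genes above 0 in all 4 (0.26 to 0.79), and replication genes run from 0.06 in pair 1 to 0.91 in pair 4.

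Other genes that rose have no list in common. Myo19, the motor that moves mitochondria along actin, had the most even values, 37.3, 41.2, 42 and 39.2 CPM against 16.9, 19, 20.4 and 17.1 CPM, and rose by 1.03 (SE 0.10, edgeR adjusted p = 0.0137). Its call held with nephrectomy libraries 1 and 2 summed and a term for numbers 1 and 2 against 3 and 4 (edgeR adjusted p = 0.0409), while its largest adjusted p without 1 pair was 0.0538. Car14, a membrane carbonic anhydrase of the proximal tubule, stood at 94.6, 95.5, 109.9 and 104 CPM against 48.3, 55.8, 62.1 and 65.6 CPM and rose by 0.72 (SE 0.10, edgeR adjusted p = 0.0309).

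Sort1, the sorting receptor sortilin, stood at 21, 22, 21.1 and 12.1 CPM against 10.1, 6.63, 10.2 and 3.89 CPM and rose by 1.27 (SE 0.17, edgeR adjusted p = 0.0309). Library 4 was the lowest of both groups, and the groups still did not overlap. Epha4, an ephrin receptor, rose by 0.99 (SE 0.12, edgeR adjusted p = 0.0295), Heyl, a Notch effector, by 1.39 (SE 0.21, edgeR adjusted p = 0.047) and Phlda1 by 1.22 (SE 0.17, edgeR adjusted p = 0.0362). The tubulin genes Tubb4b and Tubb5 rose by 0.95 (SE 0.13, edgeR adjusted p = 0.0309) and 0.94 (SE 0.15, edgeR adjusted p = 0.047). Tubb5 stood at 16.7, 18.5, 27.8 and 36.5 CPM against 10.9, 10.1, 11.3 and 14.7 CPM, so it too was highest in nephrectomy libraries 3 and 4. Reads of tubulin genes can be shared between near-identical copies, and their counts are uncertain. Ak4, a mitochondrial adenylate kinase, rose by 0.58 (SE 0.09, edgeR adjusted p = 0.0498).

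Several more genes were above every sham library without a call in either fit. Lrrc75b stood at 35.2, 33, 35.7 and 31.8 CPM against 21.2, 17.9, 14.4 and 20.6 CPM (0.79, SE 0.13, edgeR adjusted p = 0.0506, paired fit). Tiparp, a target of the aryl hydrocarbon receptor, stood at 26.6, 27.8, 26.1 and 21.4 CPM against 15.8, 17.7, 11.4 and 12.9 CPM, and Csmd1 at 17.8, 19.1, 38.3 and 32.7 CPM against 12.8, 7.47, 12.6 and 15.7 CPM (edgeR adjusted p = 0.064 for each, paired fit). Gatm, the first enzyme of creatine synthesis, stood at 6146, 5760, 4300 and 4875 CPM against 4150, 3098, 1562 and 2651 CPM (0.86, SE 0.14, edgeR adjusted p = 0.0552, paired fit). Cyp27b1, which activates vitamin D, stood at 10.4, 10.2, 20.3 and 3.60 CPM against 2.72, 2.66, 3.65 and 3.61 CPM, so 3 of 4 nephrectomy libraries lay above every sham library and library 4 did not.

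Genes that define the S1 cell and its transport showed little separation. Of 20 S1 markers 17 were positive with a median of 0.20, where 71.6% of genes of at least 5 CPM were positive. Of the 20, 2 lay above every sham library, where 3.29% of all genes and 6.27% of those of at least 5 CPM did. None was called in either fit, but the fit of 24 libraries called no gene at all and the paired fit 0.273% of all genes. A lack of calls therefore says little about these 20 genes. Lrp2 and Cubn, the receptors megalin and cubilin, stood at 4694 to 7029 CPM against 3324 to 6944 CPM and at 2181 to 3273 CPM against 1703 to 2668 CPM. The organic anion carrier Slc22a6 was above every sham library, at 419, 437, 483 and 519 CPM against 349, 366, 256 and 380 CPM (0.46, SE 0.65). Slc5a12, a lactate carrier, and Slc13a1, a sulfate carrier, had log2 fold changes of -0.20 (SE 0.62) and -0.10 (SE 0.55), and Hnf4a, which maintains the proximal tubule state, of 0.04 (SE 0.57), with a sign that changed with the scaling.

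The apical endocytosis and lysosome list was positive throughout, 24 of 24 tested, with a median of 0.24, and 0.15 with DESeq2's size factors. Of the list, 6 lay above every sham library (Clcn5, Ctsb, Ctsl, Lamp1, Tfeb and Hexa), against 3.29% of all genes and 6.27% of those of at least 5 CPM. Ctsl, a lysosomal protease, stood at 1400, 1457, 1791 and 1479 CPM against 1023, 644, 1107 and 723 CPM (0.75, SE 0.14, edgeR adjusted p = 0.0774, paired fit). Tfeb, the transcription factor of lysosome genes, stood at 5.21, 5.30, 10.2 and 5.40 CPM against 3.41, 3.64, 4.26 and 5.06 CPM. In numbered pairs 1 to 4, 20, 21, 24 and 19 of the 24 were higher after nephrectomy, where 65.1, 58.9, 74.6 and 61.5% of genes of at least 5 CPM were.

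Transcripts of other cell types were present and uneven. Collecting duct markers had the highest median of any list, 1.16 over 11 of 13 tested, and their summed level was 146, 293, 29.9 and 78.3 CPM in the nephrectomy libraries, against 66.6, 91.4, 88.6 and 40.8 CPM in the sham libraries. Nephrectomy library 2 was the highest of all 8 and library 3 the lowest. Aqp2, the vasopressin-regulated water channel of the collecting duct, stood at 5.51, 88.1, 0.177 and 6.22 CPM against 4.55, 0.650, 0.380 and 0.281 CPM. Left out 1 at a time, the libraries moved the list's median between 0.12 and 1.62. Their part in the genes above was not tested.

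Among injury genes, Spp1 was high in 1 library. Spp1, osteopontin, stood at 35.9, 35.6, 95.9 and 590 CPM against 40.7, 23.4, 25.1 and 43.9 CPM, and its log2 fold change of 2.51 (SE 0.69) rested on nephrectomy library 4. Havcr1, the injury marker KIM-1, stood at 0.393, 0.337, 0.399 and 2.31 CPM against 0.253, 0.455, 1.29 and 0.187 CPM, and its log2 fold change without that library was -0.51. The sum over 26 injury and repair genes was 180, 185, 204 and 746 CPM after nephrectomy and 130 to 177 CPM after sham surgery, but 590 of the 746 CPM were Spp1. In numbered pairs 1 to 4, 9, 18, 8 and 14 of the 26 were higher after nephrectomy, where 52.4, 56, 45.2 and 47.1% of all genes tested were. Lcn2 stayed under 1 CPM in all 8 libraries. The proliferation markers Mki67 and Top2a were also highest in nephrectomy library 4, and whether that is linked to Spp1 was not tested.

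Markers of podocytes summed to 95.5 to 114 CPM after nephrectomy and 86.6 to 119 CPM after sham surgery, those of immune cells to 163 to 304 and 145 to 282 CPM, and those of loop and distal tubule to 302 to 664 and 315 to 532 CPM. These ranges overlapped. Endothelial markers summed to 179 to 198 CPM against 125 to 173 CPM and did not overlap. Of the 14, 1 was itself above every sham library, where 3.29% of all genes and 6.27% of those of at least 5 CPM were. The defining podocyte marker Nphs1 was at 1.46 to 3.64 CPM against 2.4 to 4.17 CPM.

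**Figure D5:**
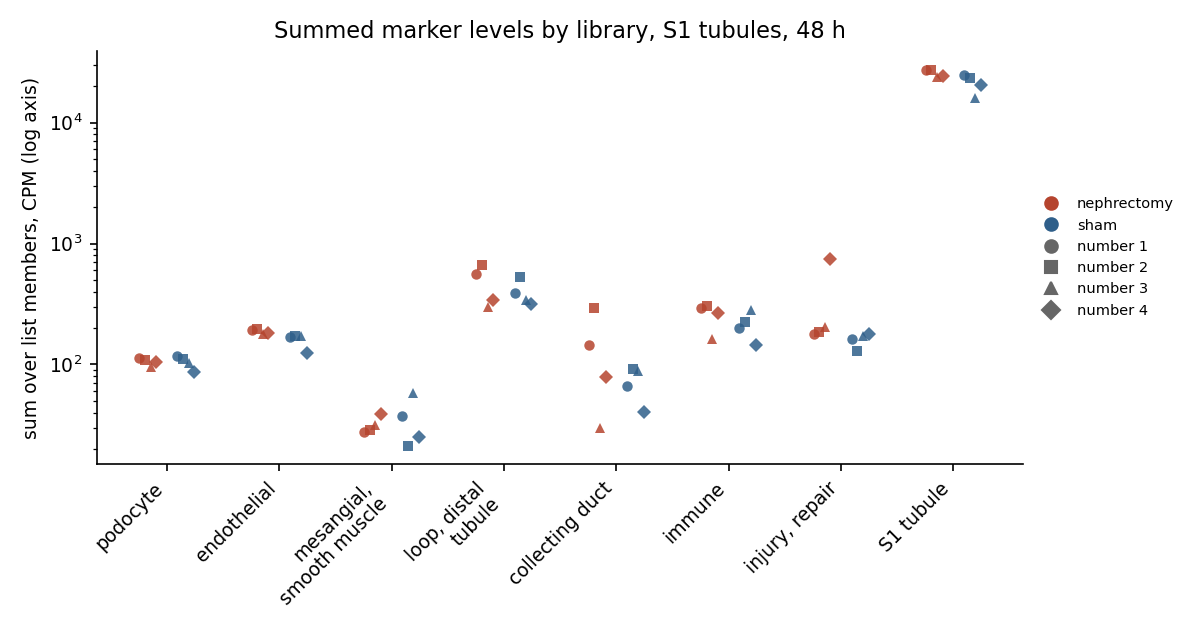
Summed CPM (log axis) of marker lists of other cell types and of S1 tubules, and of injury genes, in each of the 4 nephrectomy and 4 sham S1 libraries of 48 h. Collecting duct markers reach 293 CPM in nephrectomy library 2 and injury genes 746 CPM in nephrectomy library 4, mostly Spp1, while podocyte markers stay between 86.6 and 119 CPM in all 8.

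The 48 h difference in S1 was set beside that in glomeruli, prepared in the same way, and in whole kidney, prepared with another kit and counted in another table. No gene was called for a difference between S1 and glomeruli by edgeR (0 of 23776, with 0.278% higher and 0.913% lower at an unadjusted p; DESeq2 called 5), nor within glomeruli (0 of 23776, 0.122% higher and 0.547% lower at an unadjusted p) or whole kidney (0 of 15678, 6.08% and 4.25%). The median log2 fold change of glucocorticoid targets was -0.65 in S1, -0.30 in glomeruli and -0.62 in whole kidney. Zbtb16 stood at -3.97, -2.88 and -2.34 and Errfi1 at -1.41, -0.06 and -1.35 in these tissues. Sgk1 stood at -1.59, -0.04 and -1.25 (edgeR adjusted p = 0.0646 in whole kidney).

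Cholesterol genes had medians of 0.57 in S1, 0.15 in glomeruli and 0.37 in whole kidney. Replication genes had 0.80, 0.06 and 1.47, and the median in S1 at 24 and 72 h was 0.12 and 0.97. Mcm2 stood at 1.20 in S1, 0.06 in glomeruli and 0.77 in whole kidney, and in S1 at 0.17 and 0.19 at 24 and 72 h. No source used here says whether libraries of equal number in S1, glomeruli and whole kidney share a rat, and these values are set side by side without a further test.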

How the data were processed

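RNA was sequenced in 72 libraries, of which the 8 S1 libraries of 48 h form the comparison. The deposited values are whole-number HTSeq counts for each gene. Per the submitters' processing notes, the authors used Trimmomatic 0.32, the aligner STAR 2.4.0.1, SAMtools and HTSeq. Build, annotation and strand setting were not given in the sources used here, which leaves overlapping, antisense and near-identical genes uncertain. RPKM values deposited beside the counts entered only an alternative. Each was checked to equal the count over the library's gene total and a factor fixed for the gene (largest coefficient of variation 4.04e-09 over 21280 genes). HTSeq's 5 summary entries stayed out of totals and tests. Symbols shared by several IDs numbered 4708. Amplified fragments were counted without molecular identifiers, so errors are those between libraries.

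Tests ran in R 4.3.3 with edgeR 4.0.16 (quasi-likelihood F test, TMM scaling, filterByExpr with a minimum count of 10, 6 group means over the 24 S1 libraries), and p-values were adjusted by Benjamini-Hochberg over all genes tested. Differences between times came from the same fit, those between segments from a fit of 48 libraries. Each SE was derived from the fold change (log2) and its F statistic, as their ratio after taking the root of F. CPM are per 1e+06 gene counts after TMM scaling. Ratios within numbered pairs used CPM plus 0.5. Library measures were compared by exact permutation test over the 70 splits. Alternatives used DESeq2 1.42.0 and limma 3.58.1. The test scripts were checked on simulated counts.

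Replicate numbers come from the labels. Deviations from the group mean of equally numbered nephrectomy and sham libraries of 48 h correlated at 0.275 to 0.427 in all 4 pairs. These values were over 0.1, the threshold used, and the numbers were taken as pairs. Differently numbered libraries correlated at -0.475 to 0.438, and at 0.212 to 0.438 where both numbers were 1 and 2 or both 3 and 4. The correlations therefore do not single out the equally numbered pairs.

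The comparison and its 37 gene lists (829 symbols, 800 found) were chosen with earlier results of these data known. Genes were named by rule: with at least 5 CPM, the 12 with the smallest unadjusted p in each direction, since none passed; for each list described, up to 4 members by smallest p; the genes called for a difference between times; and a fixed set that includes Slc34a1, Slc5a2, Mki67, Sgk1 and Per1. Symbols carried by 2 IDs were left out of this rule. Genes named because the paired fit called them, and Tsc22d3, Fkbp5, Mcm5 and list members named for groups without overlap or for a motif, were named after their values were seen. Some results within the rule are not reported here. Promoter sequences are from RefSeq (GRCr8).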

Additional observations from a re-analysis of the deposited data

Results flagged for a closer look

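In 11 of 156 group values of named genes, 1 library lay far from the other 3 of its group by Dixon's criterion, which chance meets in about 1 in 20 groups. Nephrectomy library 4 gave 5 of these: Spp1 at 590 CPM (the others 35.6 to 95.9), Havcr1 at 2.31 CPM (0.337 to 0.399), and, on the low side, Sort1 at 12.1 CPM (21 to 22), Errfi1 at 206 CPM (284 to 286) and Slc13a1 at 304 CPM (400.3 to 416). In nephrectomy library 3, Slc5a8 was low at 1.06 CPM (3.64 to 4.03) and Phlda1 high at 23.9 CPM (12.4 to 13.6). Aqp2 was high at 88.1 CPM in nephrectomy library 2 (0.177 to 6.22) and at 4.55 CPM in sham library 1 (0.281 to 0.650). In the sham group, Cyp51 reached 28.4 CPM in library 4 (13.8 to 16) and Sema6d 47.5 CPM in library 1 (33.1 to 35.2).

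The difference between nephrectomy and sham at 48 h minus its mean at 24 and 72 h was -4.09 for Sgk1 and -3.00 for Plk3 on the log2 scale, both past an edgeR adjusted p of 0.05 in the test of that difference.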

How the results depend on the processing

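No gene was called for nephrectomy against sham in S1 at 48 h in the fit of 24 libraries, and 0 were called with DESeq2's size factors in edgeR, without TMM factors, without mitochondrial genes, on log2 RPKM, under other filters, with a replicate block over all times or without any 1 library of 48 h. DESeq2 called 4, limma voom with sample quality weights 178 (86 of them lower genes under 1 CPM), and the fit without both libraries that stood apart at 24 and 72 h 1. The libraries of 48 h alone gave 2 (0 to 4 without 1 library each; 2, 4 and 3 without sham library 1, 3 and 4), DESeq2 on them 83, a term for numbers 1 and 2 against 3 and 4 37, and that term with nephrectomy libraries 1 and 2 summed 2. The replicate block in those 8 libraries gave 34, and 13, 8, 31 and 6 without pair 1, 2, 3 and 4; it shared 21 genes with the voom fit, 23 with DESeq2 on the 8 libraries and 23 with the term for numbers. For the difference between 48 h and the other times the count of 2 became 8 with DESeq2, 4 without sham library 2 of 24 h, 5 without nephrectomy library 2 of 72 h, 5 without both, 0 without TMM factors, 0 with the replicate block, 0 with nephrectomy libraries 1 and 2 summed, 0 against 24 h alone, 1 against 72 h alone and 0 to 2 without 1 library each. For S1 minus glomeruli DESeq2 called 5. The cause of these differences was not tested. The replicate block, the terms for numbers, DESeq2 and the omission of single libraries or pairs in the 8 libraries, values within numbers, summed libraries, 48 h against a single time and the omission of the library apart at 72 h were chosen after seeing the data.

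Some log2 fold changes changed sign, and not all of these were near 0. Without 1 library each, Top2a ran from 0.35 to 1.26 and Umod from -2.31 to -0.53. Within libraries 3 and 4 the log2 fold changes were 0.27 for Slc13a1, -0.034 for Ccnd1, 0.073 for Igf1, -0.35 for Lcn2 and -0.66 for Fkbp5. Within libraries 1 and 2 they were -0.11 for Slc34a1, -0.10 for Top2a, -0.19 for Cyp4a1 and 0.20 for Umod. With voom they were -0.10 for Slc34a1 and 0.060 for Pck1. In the 8 libraries, Slc34a1 was -0.024 with the replicate block and -0.019 with the term for numbers. Hnf4a was -0.0492 with DESeq2's size factors and with DESeq2, -0.013 with a minimum mean of 1 CPM, and in the libraries of 48 h alone -0.0459, with the replicate block -0.0456, with the term for numbers -0.047, with DESeq2 -0.042, and with nephrectomy libraries 1 and 2 summed -0.014 and, with the term, -0.034. Fkbp5 was -0.075 with DESeq2's size factors and with DESeq2, -0.039 with a minimum mean of 1 CPM, -0.026 with the replicate block over all times, -0.019 with the term for numbers at each time, and in the libraries of 48 h alone -0.0746, with the replicate block -0.11, with the term -0.11 and with DESeq2 -0.070. With nephrectomy libraries 1 and 2 summed Fkbp5 was -0.086 (24 libraries), -0.19 (48 h alone) and -0.20 (with the term) and Lcn2 -0.086 (48 h alone) and -0.082 (with the term). Without 1 library each, the values ran from -0.086 to 0.21 for Slc34a1, -0.18 to 0.052 for Slc5a2, -0.22 to 0.15 for Slc13a1, -0.022 to 0.42 for Cyp4a1, -0.43 to 0.10 for Pck1, -0.90 to 0.18 for Igf1, -0.51 to 1.53 for Havcr1, -0.14 to 0.43 for Lcn2 and -0.14 to 0.25 for Fkbp5. Genes of a few CPM rest on few reads in the shallowest library, of 14.6 M counts.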
